A study of Homo sapiens with 6 samples.

Results

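The MAP kinase phosphatase and Sprouty genes described here are 10 genes whose products dampen signalling through the kinase ERK or the related kinases p38 and JNK. They were chosen by symbol from the 26364 genes of the authors' deposited table: DUSP1, DUSP2, DUSP4, DUSP5, DUSP6, DUSP7, DUSP10, SPRY1, SPRY2 and SPRED1. They were measured by RNA sequencing in REH, an established human line grown from acute lymphoblastic leukaemia of B-cell precursors. For 3 libraries the cells had received a lentiviral short hairpin RNA directed at STAT3 (shSTAT3), and for the other 3 a scramble hairpin. The replicates were separate experiments, and both groups went through 3 days of puromycin selection and a dead-cell removal step, so every culture had been transduced and selected. The labels do not say how many hairpin sequences were used, so an effect of STAT3 cannot be told apart from another effect of the hairpin. The values are 1 mean normalized count over the 6 libraries (read counts scaled for the depth of each library), 1 log2 fold change, 1 p-value and 1 adjusted p for each gene.

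ERK is the last kinase of the RAS, RAF and MEK cascade that growth factor and cytokine receptors switch on. Active ERK induces several of its own inhibitors. The MAP kinase phosphatases remove phosphate from both the threonine and the tyrosine of the activation loop of ERK, p38 or JNK, whereas Sprouty and SPRED proteins act higher up, between the receptor, RAS and RAF. In B-cell precursor leukaemia, DUSP6 and Sprouty genes are known as part of a feedback that keeps ERK activity within limits.

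Transcripts of DUSP1 and DUSP6 were lower in shSTAT3 cells, at 65.5% and 69.2% of their scramble levels according to the authors' deposited table. They were the most abundant members per length of transcript. DUSP7, DUSP10, SPRY1 and SPRY2 were detected and did not pass the test, 2 further members had 1 and 4 reads over all 6 libraries, and 2 had none. Of the 10 members, 8 had a mean above 0 and 6 were tested, that is, had an adjusted p from the authors. A gene is called at an adjusted p under 0.05, and 2 of the 6 tested members were called lower and 0 higher. Over all 12061 tested genes 44.5% were called, 23.2% lower and 21.3% higher, so the number of members called was near that of genes in general. The 0 higher calls came from the authors' DESeq2 test, and no member with a positive fold change reached an unadjusted p under 0.05 according to the authors' deposited table. The median log2 fold change of the 6 tested members was −0.05, against 0.0027 for all tested genes.

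Promoter windows are shown for DUSP1 and DUSP6, the members that fell, and for DUSP7, the close relative of DUSP6 that was not called. Each runs from 250 bases before to 50 bases after a gene start of RefSeq on GRCh38.p14 and is printed on the minus strand of its chromosome, on which all 3 genes lie. The windows are chr5:172771146-172771445 for DUSP1, chr12:89352452-89352751 for DUSP6 and chr3:52056522-52056821 for DUSP7. Capitals mark matches to any of 6 motifs searched on both strands: the cyclic AMP response element TGACGTCA and its core TGACG, the E-box CACGTG, the ETS motif CCGGAA, the STAT motif TTCNNNGAA, and the CArG box of SRF.
DUSP1: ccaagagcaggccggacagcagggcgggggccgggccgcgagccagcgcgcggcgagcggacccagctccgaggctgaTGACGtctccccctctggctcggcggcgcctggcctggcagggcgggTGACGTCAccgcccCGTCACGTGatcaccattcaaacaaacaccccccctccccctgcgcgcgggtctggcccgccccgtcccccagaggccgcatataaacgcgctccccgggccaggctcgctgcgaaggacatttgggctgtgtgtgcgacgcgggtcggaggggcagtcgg
DUSP6: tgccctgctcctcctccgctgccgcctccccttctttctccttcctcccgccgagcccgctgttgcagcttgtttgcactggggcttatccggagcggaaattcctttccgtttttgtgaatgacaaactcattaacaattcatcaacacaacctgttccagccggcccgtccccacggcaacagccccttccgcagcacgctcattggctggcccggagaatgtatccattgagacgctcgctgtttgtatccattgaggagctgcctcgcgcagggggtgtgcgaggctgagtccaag
DUSP7: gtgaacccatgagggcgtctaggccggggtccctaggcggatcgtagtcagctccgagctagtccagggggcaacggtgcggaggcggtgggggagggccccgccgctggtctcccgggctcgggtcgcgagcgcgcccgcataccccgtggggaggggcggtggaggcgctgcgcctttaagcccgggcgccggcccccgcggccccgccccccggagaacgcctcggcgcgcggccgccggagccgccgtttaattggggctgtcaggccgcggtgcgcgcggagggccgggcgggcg

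The DUSP1 window held 1 full cyclic AMP response element, which began at −125 when the start site is counted as 0. It also held 4 matches to the core, 2 of them within the full element, and an E-box at −108 that overlapped another core match. The full element occurred in 1.85% of the 35116 RefSeq windows of the same length, the core in 24.6% and the E-box in 7.26%. In the windows of DUSP6 and DUSP7 none of the 6 motifs was found. Windows were held for 8 members, 12 windows in all, some genes having several starts. Among the others, the core also lay in 1 window each of DUSP10 and SPRY2, and the E-box in 1 of DUSP2. The ETS motif lay in 1 window of SPRY1 and 1 of SPRY2, and the STAT motif in 1 window of SPRY1. These last 2 motifs occurred in 17.2% and 7.66% of all windows. Among the 13234 windows of tested genes the shares were 2.71% for the full element, 31.9% for the core, 9.30% for the E-box, 27.7% for the ETS motif and 6.28% for the STAT motif. A match here describes letters and not a bound site.

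The DUSP1 transcript is also known for AU-rich elements, short sequences in the 3′ untranslated region through which an mRNA is degraded quickly. That region of DUSP1 on chromosome 5 (GENCODE 29, 672 bases) held the pentamer ATTTA 4 times, a density of 5.95 per kilobase that was above that of 93.8% of the 10551 tested genes with such a region. The median density of those genes was 1.54 per kilobase. By number rather than density, 33.3% of them held at least 4 pentamers, so the high rank rests on the short length of the region. The 3 places where the pentamer was extended to the heptamer TATTTAT, in capitals, are shown with the base of the region at which the heptamer starts, because DUSP6, the other member that fell, held 0 heptamers and 1 pentamer in 2022 bases.
DUSP1, base 102: gggctggtcctTATTTATttaacttcacc
DUSP1, base 370: agaatatacctTATTTATttttgtgtagg
DUSP1, base 563: tgtttgctgatTATTTATgacctgaaata

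SPRED1 held 24 pentamers in 5585 bases, DUSP2 held 3 in 657 bases, SPRY1 held 4 in 1209 bases and SPRY2 held 2 in 782 bases. DUSP4 held 6 in 3962 bases and DUSP10 held 3 in 988 bases, while DUSP5 and DUSP7 held 0. The heptamer was not particular to DUSP1, with 3 matches in SPRY1, 2 in SPRY2, 4 in DUSP4, 5 in SPRED1 and 1 in DUSP2. DUSP5, DUSP7 and DUSP10 held 0 heptamers.

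STAT3 itself had a log2 fold change of −1.75, 29.8% of scramble, according to the authors' deposited table (adjusted p = 7.78e-74). The table does not name the numerator of its fold changes, and a negative value was read as lower in shSTAT3 because the hairpin is aimed at STAT3. Scaling factors of the libraries, derived from genes of low mean, lay between 0.935 and 1.13, around a mean of 11485068 normalized counts per library. Of 15 markers of B-cell precursors 14 were tested, PAX5, CD79A, RAG1 and DNTT among them, and VPREB1, a surrogate light chain gene, stood at 0. Of these 14, 2 rose and 6 fell. CD79A was at a log2 fold change of 0.63 and RAG2 at −0.52 according to the authors' deposited table, sizes like those of DUSP1 and DUSP6. PAX5 was at 0.32 in that table, a smaller change. Of 11 T and NK cell markers 9 are in the table, with CD3D and CD3G at 0, and 5 of 11 fibroblast and epithelial markers were at 0, DCN and EPCAM among them. The T and NK markers gave 0 calls among 2 tested, while both tested fibroblast and epithelial markers, COL1A1 and PDGFRB, fell, with log2 fold changes of −0.75 and −0.27 according to the authors' deposited table. Of 12 myeloid markers 1 rose and 1 fell among 5 tested. The summed level of the 12 was 3380 normalized counts in shSTAT3 and 3675 in scramble as implied by means and fold changes, most of it MPO. Another 4, LYZ, ELANE, S100A8 and S100A9, had means above 0 but no p in the authors' deposited table. Only 74 genes were without a p at a mean above 0, and the other lists held no such gene. DESeq2, the authors' tool, leaves the p of a detected gene blank when it flags a count as an outlier. The missing p thus marks uneven reads for these 4 markers, and which library was flagged was not tested. MPO, at a mean of 2330, had an implied standard error of 0.195. The B-cell precursor marker MME, at a mean of 6224, had one of 0.205, so a large error was not particular to myeloid genes. The median for tested genes nearest in mean to DUSP6, which had a mean of 3697, was 0.074. How evenly the reads of MPO, MME and the other markers with a p were spread over the libraries was not tested. The part of these markers in the values of the 10 members was not tested.

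DUSP1 (ENSG00000120129.5, chr5:172768090-172771195, minus strand, GENCODE 29 on GRCh38) encodes a nuclear phosphatase of p38, JNK and ERK that is induced within minutes of a stimulus. Its mean over the 6 libraries was 4668 normalized counts according to the authors' deposited table. With its fold change, this implies 3693 normalized counts in shSTAT3 and 5642 in scramble. The log2 fold change was −0.61 (95% interval −0.76 to −0.46) according to the authors' deposited table, with an adjusted p of 1.31e-13. By p-value it ranked 534 among all tested genes, and 10.0% of them had a lower fold change. Among the 500 tested genes nearest to DUSP1 in mean, 62.2% were called and 31.0% were called lower, so a call was common at this level.

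DUSP6 (ENSG00000139318.7, chr12:89347232-89353271, minus strand) encodes a cytoplasmic phosphatase that acts on ERK and is widely used as a transcript readout of ERK activity. Its mean was 3697 normalized counts according to the authors' deposited table, which implies 3023 in shSTAT3 and 4370 in scramble. The log2 fold change was −0.53 (95% interval −0.69 to −0.37) according to the authors' deposited table, with an adjusted p of 1.37e-09. It ranked 925 by p-value, and 12.8% of tested genes had a lower fold change. The intervals of DUSP1 and DUSP6 overlap over most of their length. Both falls are smaller than 2-fold, the implied standard errors are 0.078 and 0.082, and reads alone would give 0.017 and 0.019, so the error was larger than counting error. DUSP1 and DUSP6 each overlap an antisense gene of GENCODE 29. The use of strand in counting is not given in the sources used here, so reads of those antisense genes cannot be told apart.

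**Figure D1:**
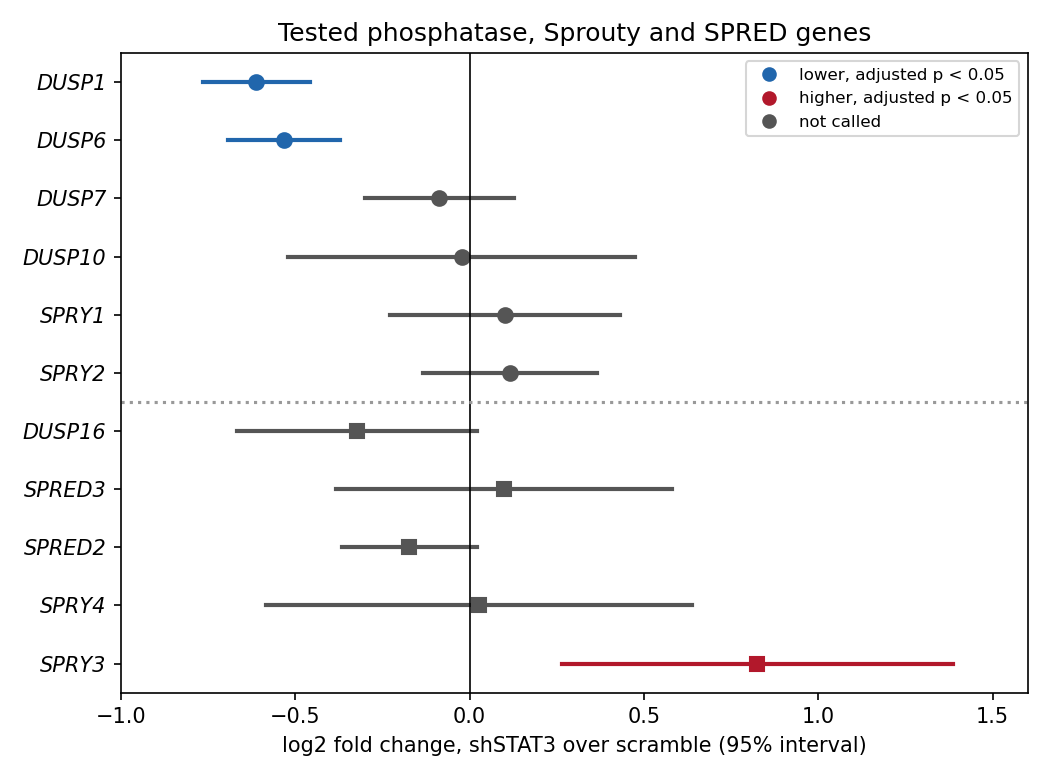
Log2 fold change (shSTAT3 over scramble, x axis) of the 6 tested members (circles, above the dotted line) and of the 5 tested remaining genes of the same families (squares), with 95% intervals worked out from fold change and p in the authors' deposited table. The intervals of DUSP1 and DUSP6 lie below 0, that of SPRY3 lies above 0, and the other 8 include 0.

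DUSP7 (ENSG00000164086.9, chr3:52048919-52056550, minus strand) is the nearest relative of DUSP6 here and likewise a cytoplasmic phosphatase of ERK. It had a mean of 639 normalized counts according to the authors' deposited table, implying 620 in shSTAT3 and 658 in scramble. Its log2 fold change was −0.09 (95% interval −0.30 to 0.13, adjusted p = 0.548) according to the authors' deposited table. This interval does not reach that of DUSP6, though the pair was not tested against each other. A change of 0.25 in log2 units would have been called for DUSP7, given its standard error.

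DUSP10 (ENSG00000143507.17, chr1:221701424-221742176, minus strand) encodes a phosphatase that prefers p38 and JNK to ERK. It had a mean of 53.7 normalized counts, implying 53.2 in shSTAT3 and 54.1 in scramble, according to the authors' deposited table. Its log2 fold change was −0.02 (95% interval −0.52 to 0.47, adjusted p = 0.951) according to the authors' deposited table, and it turned to 0.04 when the median of genes of similar mean was subtracted and to 0.05 after a fit on length, GC content and mean. With so few reads, only a change of 0.58 or more would have been called.

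SPRY1 (ENSG00000164056.10, chr4:123396795-123403760, plus strand) and SPRY2 (ENSG00000136158.11, chr13:80335976-80340951, minus strand) encode Sprouty proteins, membrane-bound inhibitors that are phosphorylated after receptor activation and block the step from receptor to RAF. SPRY2 had a mean of 326 normalized counts, implying 339 in shSTAT3 and 313 in scramble, with a log2 fold change of 0.12 (95% interval −0.13 to 0.36, adjusted p = 0.483) according to the authors' deposited table. SPRY1 had a mean of 178, implying 184 in shSTAT3 and 172 in scramble, with a log2 fold change of 0.10 (95% interval −0.23 to 0.43, adjusted p = 0.660) according to the authors' deposited table. Neither interval reaches those of DUSP1 and DUSP6. The changes that would have been called were 0.29 for SPRY2 and 0.38 for SPRY1 in log2 units.

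**Figure D2:**
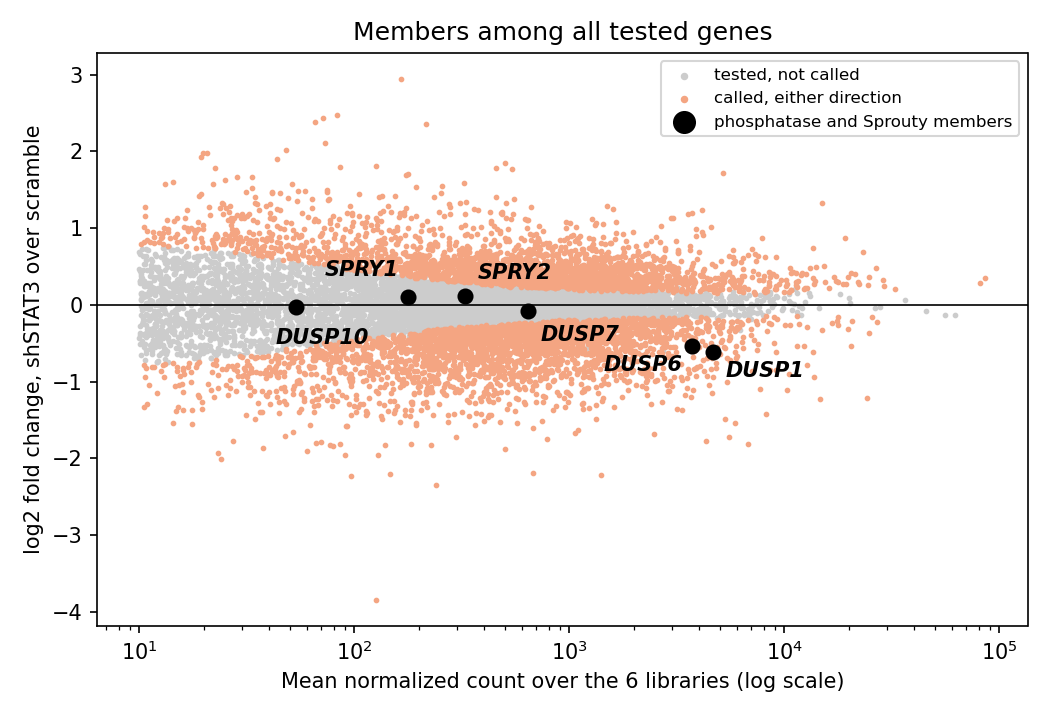
Log2 fold change (shSTAT3 over scramble, y axis) against mean normalized count (x axis, log scale) for the 12061 tested genes of the authors' deposited table, with the 6 tested members in black. DUSP1 and DUSP6 lie at means of 4668 and 3697 among called genes below 0, and the other 4 lie in the band of genes that were not called.

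Per kilobase of exon (union of exons in GENCODE 29), the order of the mean levels over all 6 libraries was DUSP1, DUSP6, DUSP7, SPRY2, SPRY1 and DUSP10. DUSP1 had 2312 normalized counts per kilobase, above 99.2% of the 11401 tested genes with a known length, and DUSP6 had 798, above 95.8%. DUSP7 and SPRY2 had 113 and 107 per kilobase, SPRY1 had 44.98 and DUSP10 had 18.4, above 17.1% of tested genes. DUSP7 and SPRY2 are neighbours whose levels differ by less than a change of gene length can move them, as DUSP7 had 191 and SPRY2 120 per kilobase of their longest transcripts. Of the 2 cytoplasmic phosphatases of ERK, DUSP6 was thus the more abundant transcript per length, with either choice of length.

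**Figure D3:**
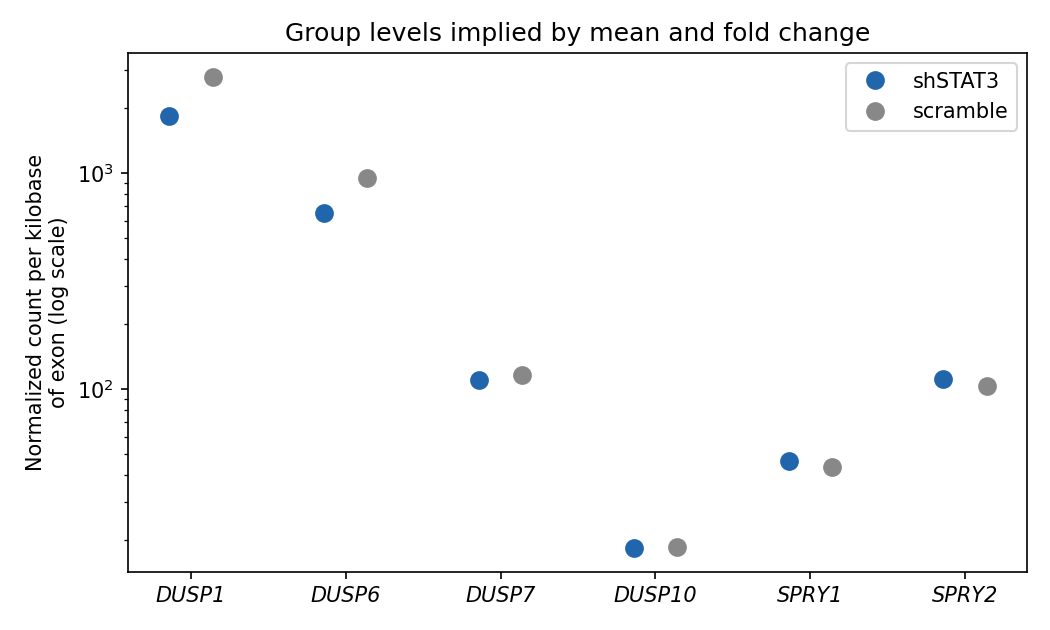
Normalized count per kilobase of exon (y axis, log scale) in shSTAT3 (blue, left) and scramble (grey, right) for the 6 tested members, as implied by the mean and the fold change in the authors' deposited table, with no error shown since the points come from 1 value per gene. DUSP1 and DUSP6 stand above the other members in both groups and are lower in shSTAT3.

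The remaining 4 members were at or near 0. DUSP2, a nuclear phosphatase of activated lymphoid and myeloid cells, and SPRED1, which brings the RAS inhibitor neurofibromin to the membrane, had means of 0 according to the authors' deposited table. A count of 0 allows up to 3 reads over the 6 libraries, for counting error only. Genes beside SPRED1 on chromosome 15 were well detected, FAM98B at a mean of 1038 and RASGRP1 at 575 according to the authors' deposited table, while beside DUSP2 on chromosome 2 the nearer gene ASTL stood at 0 and STARD7 at 3184. DUSP4, a nuclear phosphatase of ERK, JNK and p38, had a mean of 0.176 according to the authors' deposited table, which is 1 read in 1 library. DUSP5, a nuclear phosphatase that acts on ERK alone and holds it in the nucleus, had a mean of 0.590 according to the authors' deposited table, which is 4 reads in 1 library. No label ties that library to a sample. It had the highest scaling factor, 1.13 against 1.04 for the next library. It held 23.9% of the reads recovered for all 5153 genes with a mean under 6, against 16.6% for that next library. Whether depth accounts for this share was not tested. DUSP4 and DUSP5 have log2 fold changes of 0.06 and −0.13 and no adjusted p according to the authors' deposited table, and no change could have been detected at 1 or 4 reads. The negative sign for DUSP5 places its reads on the scramble side of the comparison, in the direction read from STAT3, and the positive sign for DUSP4 places its read on the shSTAT3 side. In bulk RNA, fewer cells with a transcript and less of it per cell cannot be told apart, for these genes and for DUSP1 and DUSP6.

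The same families hold 7 more genes, of which 5 were tested, 1 rose and 0 fell. SPRY3, a Sprouty gene of the pseudoautosomal region shared by the X and Y chromosomes, rose 1.77-fold, with a mean of 33.6 normalized counts that implies 43.0 in shSTAT3 and 24.3 in scramble according to the authors' deposited table. Its log2 fold change was 0.83 in that table (adjusted p = 0.0113), with a 95% interval of 0.26 to 1.39, and the call was lost at an adjusted p under 0.01. Because its 2 copies are identical, its count depends on how reads with 2 positions were assigned. DUSP16, a phosphatase of JNK and p38, and SPRED2 were at log2 fold changes of −0.32 (adjusted p = 0.126) and −0.17 (adjusted p = 0.144) according to the authors' deposited table. SPRED3 and SPRY4 were at 0.10 (adjusted p = 0.773) and 0.03 (adjusted p = 0.953) according to the authors' deposited table. DUSP8 had 1 read and DUSP9 had 2 reads over all libraries, in the same library as the reads of DUSP5.

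The pathway around the members moved both ways. Of 138 tested genes on 9 lists (each gene counted once, other family members included), 27 rose and 32 fell, which is 42.8% called against 44.5% of all tested genes. Among growth factor and cytokine receptors, 2 of 12 tested genes rose and 4 fell, with a median log2 fold change of −0.12. The fibroblast growth factor receptor gene FGFR1 and the stem cell factor receptor gene KIT fell, with log2 fold changes of −0.66 (adjusted p = 1.4e-07) and −1.38 (adjusted p = 0.000166) according to the authors' deposited table, and KIT had a mean of only 14.8. The insulin receptor gene INSR and IGF1R rose by 0.31 (adjusted p = 0.000254) and 0.41 (adjusted p = 0.00105) in log2 units according to the authors' deposited table.

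Of 17 tested genes for adaptors and for the exchange factors that load RAS with GTP, 5 rose and 4 fell (median 0.10). RASGRP2, an exchange factor regulated by calcium and diacylglycerol, the docking protein gene GAB2 and VAV1 rose by 0.58, 0.62 and 0.36 in log2 units according to the authors' deposited table (adjusted p = 5.08e-12, 6.39e-10 and 2.84e-07). The RAS exchange factor gene SOS2 fell by 0.54 in log2 units according to the authors' deposited table (adjusted p = 1.48e-05).

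In the RAS-RAF-MEK-ERK cascade 4 of 15 tested genes rose and 1 fell (median 0.07). The scaffold gene KSR1, the MEK gene MAP2K2 and the RAF gene ARAF rose by 0.65, 0.34 and 0.33 in log2 units, and the scaffold gene IQGAP1 fell by 0.34, according to the authors' deposited table (adjusted p = 0.000135, 0.000176, 0.00113 and 0.000157). The ERK gene MAPK3 did not pass, at a log2 fold change of 0.09 (95% interval −0.09 to 0.27, adjusted p = 0.446) according to the authors' deposited table. The RAS genes HRAS and NRAS were at −0.17 and −0.03 (adjusted p = 0.331 and 0.835) according to the authors' deposited table. BRAF and MAP2K1 were at 0.08 and −0.21 according to the authors' deposited table (adjusted p = 0.583 and 0.0919).

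Of 20 tested genes for other inhibitors of RAS and ERK, 5 rose and 5 fell (median −0.10). The RAS GTPase-activating gene DAB2IP fell by 1.03 in log2 units and PTPN7, a tyrosine phosphatase of ERK and p38 in blood cells, fell by 2.01 at a mean of 24.0, according to the authors' deposited table (adjusted p = 8.24e-14 and 5.86e-09). RASAL3, which also speeds GTP hydrolysis by RAS-family proteins, rose by 0.70 in log2 units according to the authors' deposited table (adjusted p = 5.81e-10).

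**Figure D4:**
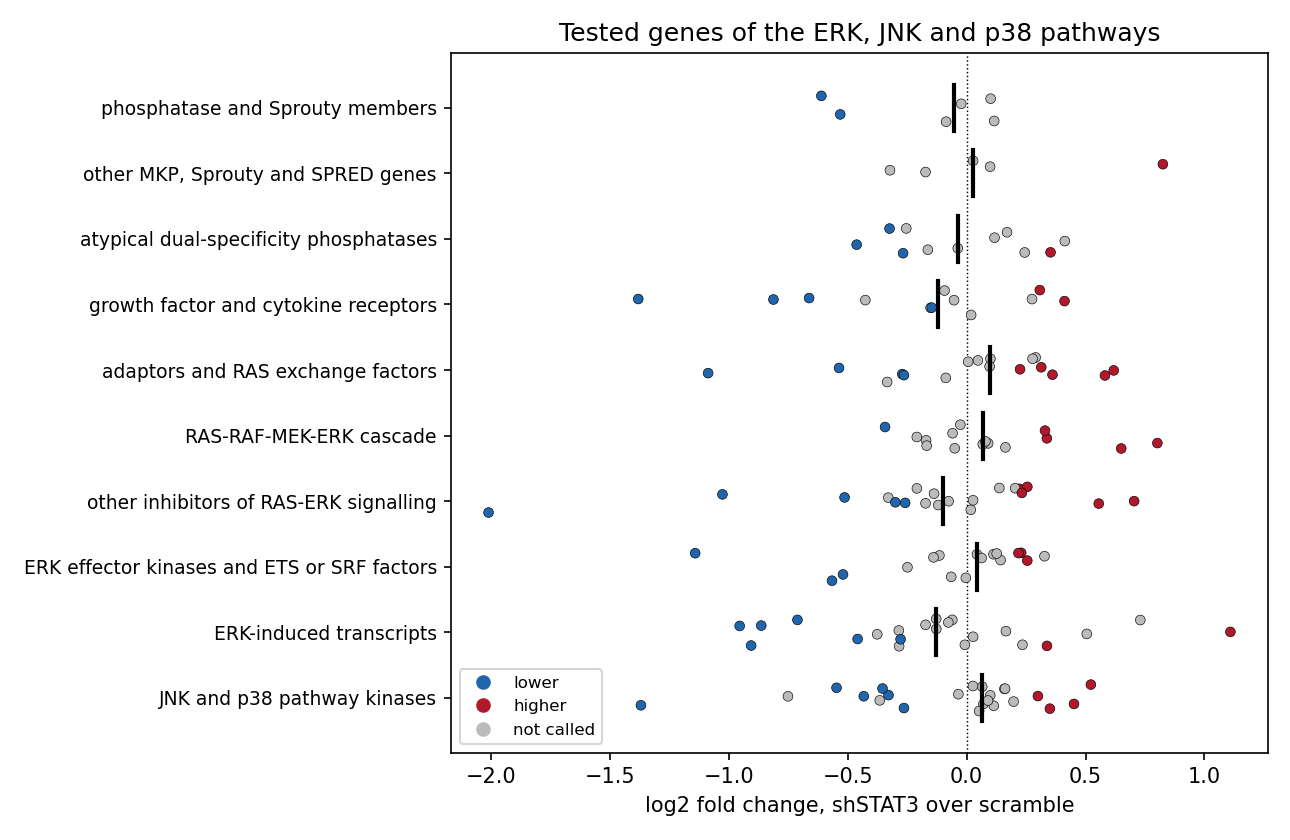
Log2 fold change (shSTAT3 over scramble, x axis) of each tested gene of the members and of 9 pathway lists (y axis), coloured by whether the authors' deposited table gives an adjusted p under 0.05, with the list median as a black bar. The medians of the lists lie between −0.13 and 0.10, and every list but the members and the remaining family genes holds calls in both directions.

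Among ERK effector kinases and ETS or SRF factors 3 of 17 tested genes rose and 3 fell (median 0.04). The transcription factor genes ETS1 and ELK3 and the ribosomal S6 kinase gene RPS6KA3 fell by 1.14, 0.57 and 0.52 in log2 units, while RPS6KA1 rose by 0.25, according to the authors' deposited table (adjusted p = 7.24e-26, 4.01e-07, 5.36e-06 and 0.00601). With Benjamini-Yekutieli adjustment 0 genes of this list rose, so the call of RPS6KA1 was lost. Transcripts known to be induced by ERK in other cells form a list without the 10 members. Of its 22 tested genes 2 rose and 6 fell, with a median of −0.13. That is 36.4% called, against 44.5% of all tested genes. ETV4, PLAUR, IER5 and FOS fell by 0.86, 0.96, 0.46 and 0.91 in log2 units according to the authors' deposited table (adjusted p = 4.48e-10, 0.000167, 0.000401 and 0.00072). LIF, a cytokine of the interleukin-6 family, rose by 1.11 according to the authors' deposited table (adjusted p = 7.47e-08). ETV5, PHLDA1 and EGR1, which are commonly read out beside DUSP6, were at −0.01, −0.06 and −0.08 according to the authors' deposited table and did not pass (adjusted p = 0.951, 0.708 and 0.867). For ETV5, with a mean of 2225, the 95% interval was −0.17 to 0.15, which does not reach that of DUSP6. EGR1 had a mean of only 25.2 and a 95% interval of −0.70 to 0.55, which covers that of DUSP6. Its values therefore do not show whether EGR1 stayed level or fell like DUSP6.

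The stress kinases p38 and JNK are the other substrates of DUSP1, and of their pathway kinases 4 of 23 tested genes rose and 6 fell (median 0.07). MAPKAPK2, a kinase that p38 activates, fell furthest of the 10 called, by 1.37 in log2 units according to the authors' deposited table (adjusted p = 4.22e-69). The JNK gene MAPK9 fell by 0.55 and the p38 gene MAPK14 by 0.26, while MAPK8IP3, a JNK scaffold gene, and TAOK3 rose by 0.45 and 0.35, according to the authors' deposited table (adjusted p = 4.82e-07, 0.00239, 1.9e-05 and 0.000136). The JNK gene MAPK8 was at 0.07 according to the authors' deposited table and did not pass (adjusted p = 0.701).

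Atypical dual-specificity phosphatases, which lack the kinase-binding domain of the MAP kinase phosphatases, had 1 gene that rose and 3 that fell among 11 tested (median −0.04). DUSP15, DUSP12 and STYX, a pseudophosphatase gene, fell by 0.46, 0.27 and 0.32 in log2 units, and DUSP14 rose by 0.35, according to the authors' deposited table (adjusted p = 0.00132, 0.0421, 0.0425 and 0.0259). The count that fell was 1 under 5 of the 7 alternatives, and the call of DUSP14 was lost at an adjusted p under 0.01 and with Benjamini-Yekutieli adjustment.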

How the data were processed

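RNA of 3 shSTAT3 and 3 scramble cultures of REH cells was sequenced. Per the submitters' processing notes, the tools were bcl2fastq 2.19 with Trimmomatic, featureCounts and Bowtie2, together with DESeq2 and Picard, on hg38. Their order, settings, annotation, strand use and the model are not given in these sources.

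The deposited mean is a signal, the normalized count averaged over the 6 libraries by the authors, per the file headers. Per the file headers, the deposited fold changes are log2 values. They are shrunken toward 0, as DUSP5, with 4 reads that all lie in 1 library, is at only −0.13. Percents of scramble, fold values, intervals and the sizes that would have been called are on this shrunken scale. Group levels are approximate for the same reason. The deposited p-value and adjusted p are those of the authors, per the file headers. The deposited adjusted values were matched within 2.87e-07 by Benjamini-Hochberg adjustment over 12061 genes. Another 5640 genes have a p and no adjusted p, 74 have no p, and 8589 have a mean of 0.

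The standard error is the size of the fold change over the normal quantile of its p, and 95% intervals follow from it. Group levels are the values for which the mean and the fold change both hold, with groups of 3. The counting error of a fold change is that of 3 against 3 Poisson counts at the mean. Reads of genes with a mean under 6 were worked out from the step sizes of the 6 libraries (tolerance 4e-09), which was tested on simulated data, where 200 of 200 genes were recovered. Lengths and 3′ untranslated regions of at least 30 bases came from GENCODE 29 on GRCh38, and promoter windows from RefSeq. Lists were described by their counts and medians. Named genes are the members, the remaining family genes, STAT3, for each list up to 4 called genes by smallest adjusted p, and 16 genes set by name. Some genes that this rule names are not reported here. FAM98B, RASGRP1, ASTL, STARD7 and the markers were named after their values were seen. The deposited test was the planned one. A fit with edgeR was planned only for the case of counts per sample and was not run, as the deposited values are pooled over libraries. The direction of the fold changes was set from STAT3. P-values measure the spread between 3 experiments a group. The members and lists were chosen with earlier results of these data known. Alternatives were other thresholds, filters, adjustments and centrings. Scripts ran in Python 3.11.15 with scipy 1.17.1, pandas 2.3.3, matplotlib 3.10.9 and numpy 2.4.6.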

Additional observations from a re-analysis of the deposited data

How the results depend on the processing

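Under the 7 alternatives run (adjusted p under 0.01 or 0.1, adjustment over all genes with a p, a mean of at least 50, Benjamini-Yekutieli adjustment, and both centrings), 2 members were called lower and 0 higher each time. DUSP1 stayed at −0.61 and DUSP6 lay between −0.53 and −0.48 on the log2 scale. DUSP10, not called in any of them, turned to 0.0396 with the median of genes of similar mean subtracted and to 0.0495 after a fit on length, GC content and mean. The cause was not tested. Over the pathway lists, 18 to 34 genes rose and 22 to 36 fell. The call of SPRY3 was lost at an adjusted p under 0.01 and with Benjamini-Yekutieli adjustment, and its mean is under 50. Counts of single lists stayed within 1.5 times in 108 of 126 cases. The count of atypical phosphatases that fell was 1 under 5 alternatives, that of other inhibitors was 3 at an adjusted p under 0.01 and with Benjamini-Yekutieli adjustment, and that of receptors was 2 with means of at least 50 and with that adjustment. Of counts that rose, the atypical phosphatases had 0 at an adjusted p under 0.01, and they and the ERK effector kinases had 0 with Benjamini-Yekutieli adjustment. With the longest transcript in place of the union of exons, the levels per kilobase were 840 for DUSP6, 191 for DUSP7, 120 for SPRY2, 68.3 for SPRY1 and 20.1 for DUSP10, in the same order.

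No paired analysis was possible because the values analysed are 1 mean, fold change and p for each gene, with no value per library. For the same reason, leaving out a replicate or the library that held the reads of DUSP5, and a fit with edgeR, were not run. Means were lowest for SPRY4, SPRY3, SPRED3 and DUSP10 among the family genes tested.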

Other observations

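A further 5 atypical dual-specificity phosphatase genes were too low to be tested, and the reads behind 4 of their means could be worked out. DUSP23 had 3 reads, all in the library that also held the reads of DUSP5, DUSP8 and DUSP9. DUSP13 had 3 of 5 reads there, and DUSP27, which encodes a pseudophosphatase of muscle, had 7 of 18. DUSP26 had 22 reads, of which 3 lay in that library. DUSP21 had a mean of 0 in the authors' deposited table. No label ties that library to a sample. The genes whose reads all lie in it had negative log2 fold changes in the authors' deposited table, −0.10 for DUSP23, −0.07 for DUSP9 and −0.06 for DUSP8, which places those reads on the scramble side, in the direction read from STAT3.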
